A study of Mus musculus with 66 samples.

Results

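Imprinted genes are expressed from one parental copy, and the copy is chosen by DNA methylation laid down in the egg or the sperm. The parental marks are erased in primordial germ cells, and the maternal marks are written again while oocytes grow. Described here are 10 imprinted genes, chosen by name from the 24062 genes of the expression table and followed through 24 groups of mouse germ cells and oocytes. In somatic tissue 5 of them are transcribed from the maternal copy (H19, Meg3, Cdkn1c, Phlda2 and Grb10) and 5 from the paternal copy (Igf2, Peg3, Mest, Snrpn and Plagl1). The table sums the reads of both copies, so that levels, and not the parental origin of the RNA, were measured.

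Poly(A)+ RNA was sequenced from 66 libraries. In 9 groups of 3 libraries, cells came from ovaries of stella-ECFP(SC) reporter transgenic mice (C57BL/6 x B6D2F1). These were germ cells at embryonic days E14.5, E16.5 and E18.5, and oocytes at postnatal days P1 and P3 and, separated into small and large, at P4 and P6. In another 9 groups of 3 libraries, cells came from reconstituted ovaries (rOvaries; C57BL/6 X 129/SvJ). An rOvary is an aggregate of Blimp1-mVenus-positive primordial germ cell-like cells made from mouse embryonic stem cells (ESCs) with frozen-thawed gonadal somatic cells of E12.5 embryos, grown on a collagen-coated membrane with the Rock inhibitor Y-27632 at the start. Germ cells were taken on days D5, D7, D9, D10 and D11 of that culture, and oocytes on D13, D15, D17 and D20. The last 6 groups, of 2 libraries each, were D21 oocytes from wild-type (WT) ESCs or from ESCs with the transgene Foxo3dNES (Tg). Each genotype was cultured in normoxia (air), in hypoxia (5% oxygen), or with no oxygen condition in its label. The promoter of Foxo3dNES, the number of ESC clones, the number of cells in a library and the size limits of small and large oocytes are not given in the sources used here. All cultured germ cells therefore share an ESC origin and a somatic compartment taken from embryos, and the D21 controls share both with the treated groups.

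The members differ in what their RNA does. H19 is a non-coding RNA and the host transcript of a microRNA, and Meg3 is a non-coding RNA from the Dlk1-Dio3 domain. CDKN1C (p57) is an inhibitor of cyclin-dependent kinases, PHLDA2 is a growth-restraining PH-domain protein, and GRB10 is an adaptor that dampens insulin and IGF receptor signalling. IGF2 is a fetal growth factor, PEG3 and PLAGL1 are zinc finger proteins, MEST resembles alpha/beta hydrolases, and SNRPN encodes the spliceosomal protein SmN. H19 and Igf2 share one control region on chromosome 7, methylated in sperm, and Meg3 lies in a domain whose control region is also methylated in sperm. The control regions of Peg3, Mest, Snrpn, Plagl1 and Grb10 are methylated in oocytes, and so is the one that acts on Cdkn1c and Phlda2.

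In GRCm38 coordinates, 6 members lie on chromosome 7: H19 (chr7:142575529-142578143), Igf2 (chr7:142650766-142666816), Cdkn1c (chr7:143458339-143461050), Phlda2 (chr7:143501545-143503150), Peg3 (chr7:6703892-6730431) and Snrpn (chr7:59982495-60140219), all on the minus strand. Mest (chr6:30723547-30748465), Plagl1 (chr10:13060504-13131694) and Meg3 (chr12:109541001-109571726) are on the plus strand, and Grb10 (chr11:11930508-12038683) is on the minus strand. Sequences around start sites were read from RefSeq (GRCm38.p6) as windows of 300 bases, with 250 before and 50 after the start. They were found for 8 of the 10 members, which have 18 such windows together. The 4 windows below are shown because the comparison of small and large oocytes turns on these genes: Mest, with its outer and its inner start, and Plagl1 were higher in large oocytes at both ages, and Peg3 was higher in small oocytes at P6. Capitals mark the hexamer TGCCGC on either strand (GCGGCA when read on the opposite strand), which the imprint-protecting protein ZFP57 binds when its CpG is methylated. All are written 5′ to 3′ on the gene's strand.
Mest, outer start, chr6:30733256-30733555 (+): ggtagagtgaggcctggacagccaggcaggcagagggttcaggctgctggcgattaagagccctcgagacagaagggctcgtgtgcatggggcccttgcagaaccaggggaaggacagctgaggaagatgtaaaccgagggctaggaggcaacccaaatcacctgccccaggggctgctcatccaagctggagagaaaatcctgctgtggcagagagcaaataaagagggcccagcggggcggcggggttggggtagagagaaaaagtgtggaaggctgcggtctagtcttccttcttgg
Mest, inner start, chr6:30737800-30738099 (+): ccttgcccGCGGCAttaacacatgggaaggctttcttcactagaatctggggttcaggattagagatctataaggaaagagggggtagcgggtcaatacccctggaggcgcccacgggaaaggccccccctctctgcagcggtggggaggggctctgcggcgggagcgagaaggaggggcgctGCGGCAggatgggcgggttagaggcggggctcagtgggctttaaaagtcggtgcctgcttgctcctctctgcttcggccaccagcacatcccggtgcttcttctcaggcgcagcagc
Plagl1, chr10:13090582-13090881 (+): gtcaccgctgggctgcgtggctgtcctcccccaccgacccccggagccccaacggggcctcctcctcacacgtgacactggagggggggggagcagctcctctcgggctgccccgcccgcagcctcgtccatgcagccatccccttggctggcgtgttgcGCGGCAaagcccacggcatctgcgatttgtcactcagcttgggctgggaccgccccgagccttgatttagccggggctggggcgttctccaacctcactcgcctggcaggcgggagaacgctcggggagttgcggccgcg
Peg3, chr7:6730370-6730669 (-): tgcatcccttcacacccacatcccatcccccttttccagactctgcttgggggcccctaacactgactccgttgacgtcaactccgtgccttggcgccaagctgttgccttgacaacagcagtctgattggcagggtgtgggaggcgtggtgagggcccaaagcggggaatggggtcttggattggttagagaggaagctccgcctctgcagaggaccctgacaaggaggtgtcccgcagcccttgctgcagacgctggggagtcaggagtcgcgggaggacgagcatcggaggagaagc
The outer Mest window held 8 CpGs and no hexamer, and the inner window held 17 CpGs and 2 hexamers. The Plagl1 window held 26 CpGs and 1 hexamer, and the Peg3 window 13 CpGs and none. Over all 32851 windows of the table the median was 7 CpGs, and 11.6% held the hexamer, against 7 of the 18 windows of the members. Of these 7, 1 pair is the inner Mest start, listed at positions so close that both windows hold the same hexamers, and with overlapping windows counted once 6 of 17 held it. A match is a description of these letters, and the table of levels does not tell one start site from another.

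H19 carries a microRNA whose mature arms are shown because the deposited table has a row of its own for the locus (Mir675). The seed, bases 2 to 8, is in capitals.
miR-675-5p, chr7:142577112-142577133 (-): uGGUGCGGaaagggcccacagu
miR-675-3p, chr7:142577078-142577099 (-): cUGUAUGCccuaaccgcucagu
The Mir675 row held between 2.75% and 7.10% as many reads as the H19 row in the 28 libraries with at least 100 H19 reads. The arms themselves were not measured, since the libraries are of polyadenylated RNA. Another row overlaps Snrpn: the count for Snurf, which is made from the same transcript, came to between 96.7% and 100% of the Snrpn count, so that the level given for Snrpn is that of the joint transcript. Exons of Copg2 on the opposite strand cover 23.1% of the exon bases of Mest, and whether reads were counted by strand is not given in the sources used here.

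Values are in RPM, the reads of a gene for every 1000000 reads of its library. In units of 1000000 reads, the depth was 13.9 to 23.2 in the ovarian libraries, 14.7 to 22.8 in the D5 to D20 libraries and 4.84 to 21.3 at D21. A count of 3 reads, taken as the limit of detection, was therefore worth between 0.129 and 0.619 RPM. Members were above 0 in every library for 7 of the 10 genes, the exceptions being H19, Phlda2 and Meg3. All 9 germ-cell markers were above 0 in every library. The granulosa markers (14 genes, led by Inha and Kitl) summed to 32.6 to 46.5 RPM at E14.5, 131 to 162 RPM at E16.5 and 342 to 725 RPM from D9 to D11, but to at most 14.1 RPM from D13 to D20. The stromal markers (10 genes, led by Col3a1 and Col1a2) reached 177 to 1650 RPM at D11, the highest value being in replicate 2. In bulk RNA of this kind, fewer cells of a type and less RNA per cell cannot be told apart.

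**Figure D1:**
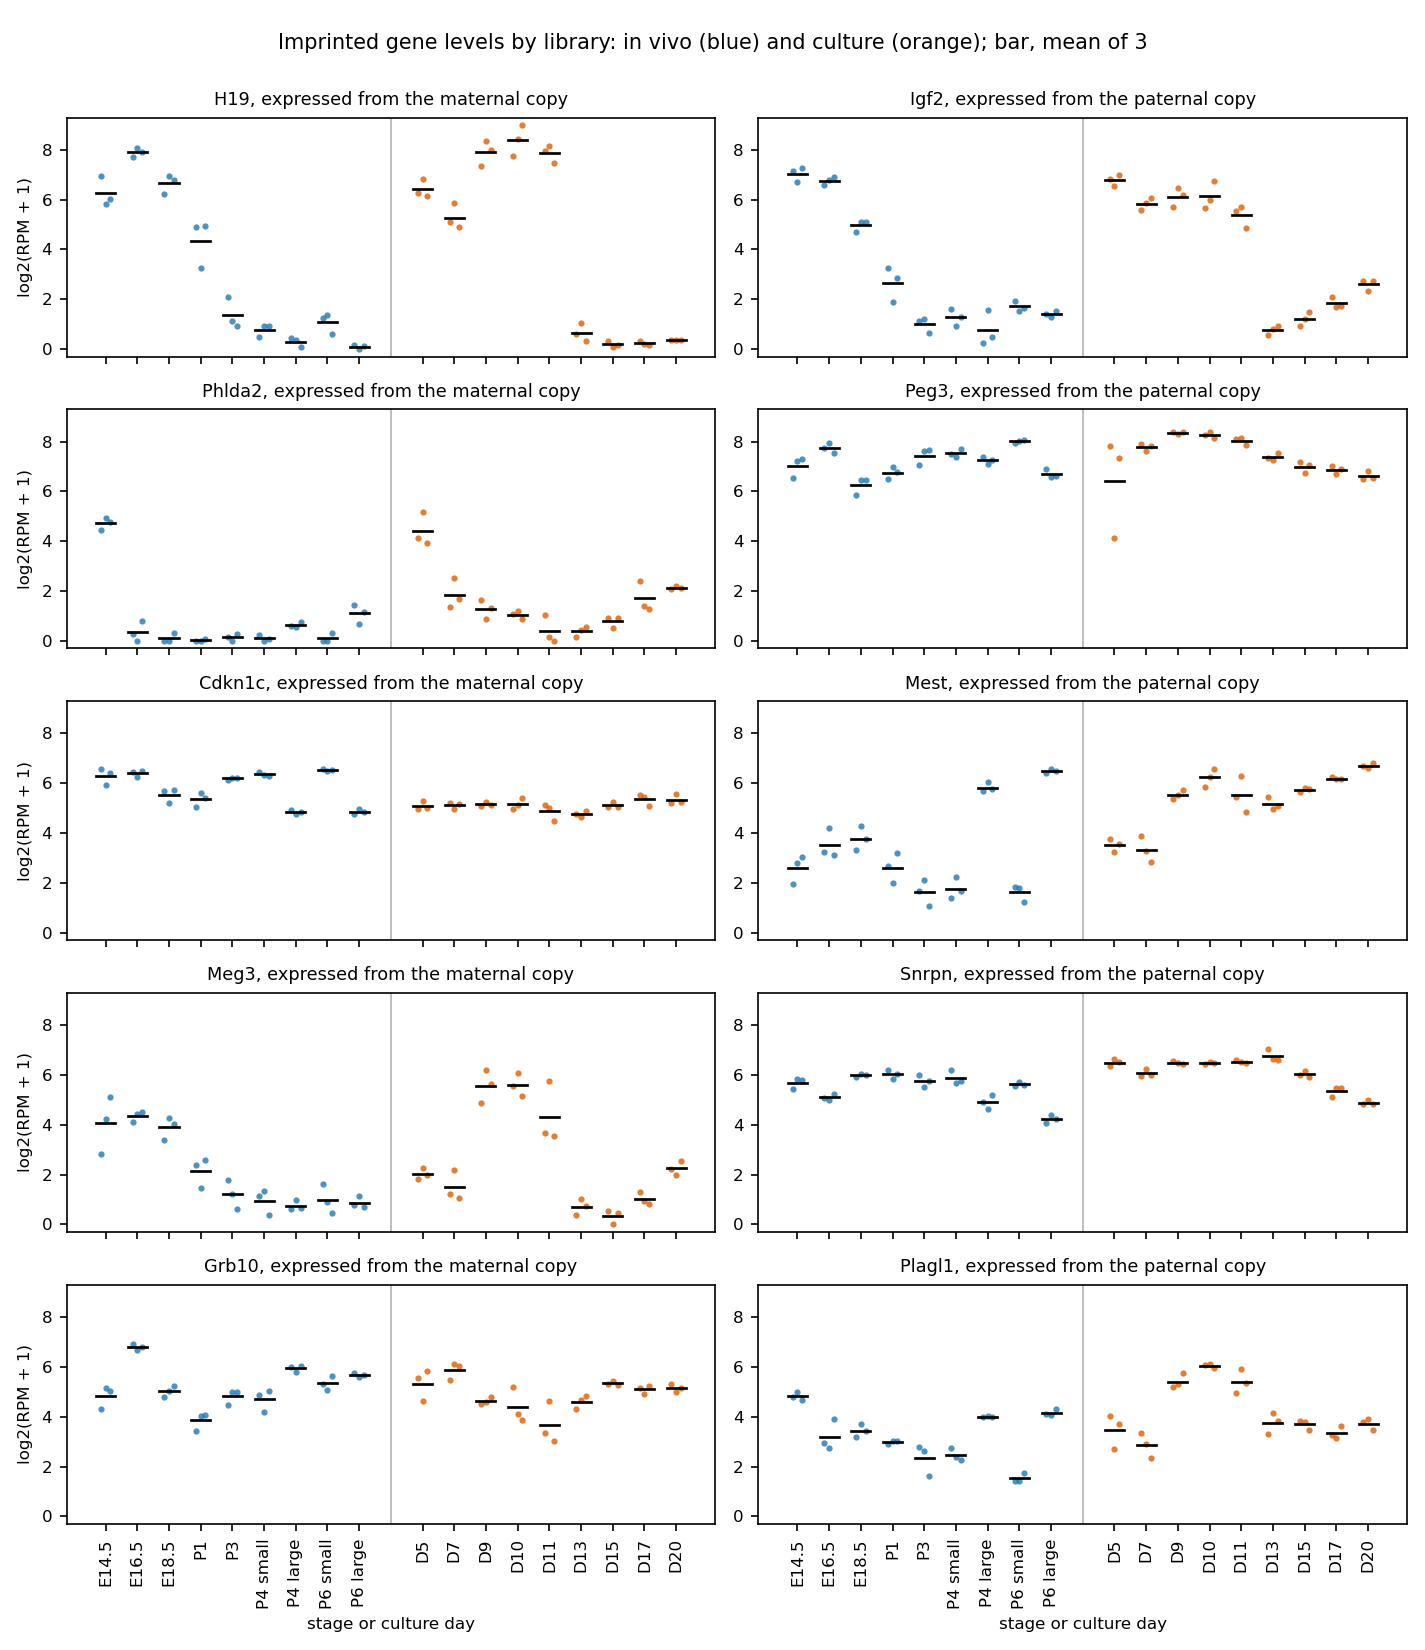
Level of each of the 10 imprinted genes in the ovarian libraries (blue) and the D5 to D20 libraries (orange), as log2(RPM + 1), with age or culture day along the horizontal axis. Points are libraries and bars are means of 3 libraries on the log2 scale. H19 and Igf2 are high up to E18.5 and up to D11 and low in P3 to P6 and D13 to D20 oocytes. Mest is highest at D20 and in P6 large oocytes, followed by D10.

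Each member's level spanned a wide range over the 24 groups. The mean level of H19 ran from 0.0661 RPM in P6 large oocytes to 358 RPM at D10, and that of Igf2 from 0.691 RPM at D13 to 133 RPM at E14.5. Meg3 ran from 0.275 RPM at D15 to 50.2 RPM at D9, and Phlda2 from 0.0191 RPM at P1 to 25.7 RPM at E14.5. These 4 genes were thus close to undetected in some groups. Cdkn1c had the narrowest range, from 26.2 RPM at D13 to 98 RPM in hypoxic Tg oocytes, followed by Peg3, from 77.3 RPM at E18.5 to 329 RPM at D9. Snrpn was lowest in P6 large oocytes (18 RPM) and highest at D13 (109 RPM), and Grb10 was lowest at D11 (13.3 RPM) and highest at E16.5 (111 RPM). Mest and Plagl1 were both lowest in P6 small oocytes, at 2.14 and 1.88 RPM, and highest at D20 (103 RPM) and D10 (65.2 RPM). When the 24 groups were put in order of their mean, most neighbours overlapped: of the 23 neighbouring pairs, between 1 and 4 per gene were free of overlap between their libraries.

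Between genes, levels can be compared only per length of transcript. In mean RPM per kilobase of exon, Cdkn1c was the highest of the 10 in E14.5 germ cells (38.8, SD 8.39) and in P6 small oocytes (45.0, SD 1.38). Its lead over H19 at E14.5 (32.8, SD 14.7) was within the spread of the libraries. At E18.5 H19 (41.4) and Snrpn (29.1) stood above Cdkn1c (22.7). Mest was the highest in P6 large oocytes (22.5) and at D20 (26.1), with Cdkn1c next (13.7 and 19.6).

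The first comparison covered fetal germ cells between E14.5 and E18.5, when female germ cells pass through meiotic prophase. Phlda2, Igf2, Plagl1, Cdkn1c and Peg3 fell and Mest rose. Phlda2 was 20.9, 29.6 and 26.5 RPM in the 3 libraries at E14.5 and 0, 0 and 0.239 RPM at E18.5, the last from 4 reads. The groups lay far apart, and the gene was already at 0.754 RPM or less in every E16.5 library. On the scale of log2(RPM + 1) used for all tests, the difference was −4.62 ± 0.19 (SE; limma, adjusted p = 1.5e-16). Igf2 was 141, 105 and 152 RPM at E14.5 and 24.7, 33.7 and 33.6 RPM at E18.5. Each late library was well below each early one, and the mean was 4.33-fold lower (log2 difference −2.07 ± 0.30 SE, limma adjusted p = 1.2e-06). Plagl1 went from 27.3 to 9.99 RPM (2.73-fold lower, log2 difference −1.38 ± 0.26 SE, limma adjusted p = 3.7e-05). Cdkn1c went from 79.1 to 46.2 RPM, 1.71-fold lower (adjusted p = 4.9e-05, limma), and Peg3 from 132 to 77.3 RPM (adjusted p = 0.00088, limma). Peg3 is read differently at E16.5: its libraries there held 213, 247 and 187 RPM, all above E14.5, so that the decrease lies between E16.5 and E18.5. Mest was 2.87, 5.86 and 7.28 RPM at E14.5 and 8.93, 18.2 and 12.5 RPM at E18.5. The groups did not overlap, and the mean was 2.48-fold higher (log2 difference 1.19 ± 0.34 SE, limma adjusted p = 0.0031). The granulosa sum went from 32.6 to 46.5 RPM at E14.5 to 58.9 to 104 RPM at E18.5 and the stromal sum from 8.70 to 10.7 RPM to 29.6 to 68.5 RPM, and both sums, like Mest, were lowest in replicate 1 of E18.5. Their part in the rise of Mest was not tested.

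A transient maximum at E16.5 was the feature of Grb10, whose product restrains growth factor signalling. It was 18.9, 34.8 and 31.5 RPM at E14.5, 121, 101 and 112 RPM at E16.5 and 26.8, 32.1 and 36.4 RPM at E18.5. Every E16.5 library exceeded every library of both other ages. Against E14.5 the mean was 3.92-fold higher (log2 difference 1.97 ± 0.22 SE, limma adjusted p = 1.8e-08), while E18.5 and E14.5 differed by 0.19 (limma adjusted p = 0.46). The contrast of E16.5 with E14.5 was added to the planned comparisons, so its p-values are descriptive. H19 showed the same order of ages, at 122, 55.8 and 64.1 RPM, then 211, 271 and 240 RPM, then 73.7, 122 and 110 RPM. Its rise to E16.5 passed the test (log2 difference 1.64, limma adjusted p = 0.00025), an age at which 67.3% of all genes were called against E14.5 (42.7% higher and 24.6% lower). Of the 14 granulosa markers, 12 were also higher at E16.5 than at E14.5, and their part in the result was not tested. In all, 1 of the 10 members was called higher and 5 lower at E18.5, beside 70.0% of all 15401 genes tested called in either direction (40.0% higher and 30.0% lower). The median log2 difference was −0.45 over the members and 0.14 over all genes. Rescaling by size factors moved the value over all genes to 0.006. The split over all genes went with it from 6157 higher and 4625 lower to 5185 and 5468. From the list of other imprinted genes, 20 of 49 tested were called higher, among them Th (0.266 to 108 RPM) and Dlk1 (log2 difference 2.54), and 16 were called lower, among them Slc22a18, Atp10a and Asb4.

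Around birth, between E18.5 and P3, H19, Igf2, Meg3, Mest and Plagl1 fell, while Peg3 and Cdkn1c rose. H19 was 28.5, 8.5 and 29.8 RPM at P1 and 3.24, 1.16 and 0.91 RPM at P3. The steps did not overlap: all P1 libraries were below all E18.5 libraries and above all P3 libraries. The mean at P3 was 57.6-fold below E18.5 (log2 difference −5.28 ± 0.36 SE, limma adjusted p = 1.1e-11), and 98.4-fold without P3 replicate 1. Igf2 followed the same course, with 8.56, 2.7 and 6.23 RPM at P1 and 1.21, 1.33 and 0.56 RPM at P3. That is 29.7-fold below E18.5 (log2 difference −3.97 ± 0.30 SE, limma adjusted p = 9e-11). Meg3 went from 9.4, 18.6 and 15.4 RPM at E18.5 to 2.42, 1.33 and 0.56 RPM, 10.1-fold lower (adjusted p = 6.7e-06, limma) and 15.3-fold without P3 replicate 1. H19, Igf2 and Meg3 therefore all reached the low single digits by P3, at the age when follicles form. Mest fell 5.93-fold over the same interval, to 2.2, 3.38 and 1.12 RPM (adjusted p = 7.2e-06, limma). Peg3 moved the other way, from 56.8, 88.1 and 86.9 RPM to 133, 194 and 201 RPM, without overlap and 2.28-fold higher (log2 difference 1.18 ± 0.19 SE, limma adjusted p = 7.7e-06). Cdkn1c rose from 50.8, 35.5 and 52.3 RPM to 70, 73.6 and 72.9 RPM (log2 difference 0.65 ± 0.15 SE, limma adjusted p = 0.00045).

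Snrpn did not pass the test in this interval (log2 difference −0.24, limma adjusted p = 0.19), nor did Grb10 (−0.19, adjusted p = 0.47) or Phlda2 (0.04, adjusted p = 0.88), the last with no more than 0.239 RPM in any library of either age. Together 2 members were called higher and 5 lower, against 58.3% of all genes called in either direction (26.0% higher and 32.3% lower), with a median log2 difference of −0.67 over the members and −0.07 over all genes. Of the other imprinted genes, 10 were called higher and 23 lower. Among those expressed from the paternal copy, 2 of 23 were called higher and 15 lower, including Ndn (25.2 to 1.89 RPM) and Peg10 (log2 difference −2.87). Rian, a maternally expressed RNA of the Meg3 domain, was also called lower (log2 difference −2.08). The granulosa markers summed to 58.9 to 104 RPM at E18.5 and 16.4 to 41 RPM at P3, and their part in the result was not tested.

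Small and large oocytes of one age differed in a share of the members close to that over all genes: 6 of 10 were called at P4, against 69.2% of all genes (48.7% higher and 20.5% lower, small minus large), and 7 of 10 at P6, against 73.4% (51.3% higher and 22.1% lower). Small oocytes held more Cdkn1c and Snrpn at both ages and more Peg3 at P6, and large oocytes held more Mest and Plagl1 at both ages and more Grb10 at P4. The somatic marker sums were also higher in small oocytes. For granulosa they were 27.6 to 35.8 RPM against 6.39 to 8.34 RPM at P4 and 17.7 to 22.1 RPM against 6.81 to 9.01 RPM at P6. For stroma they were 8.59 to 15.5 RPM against 1.44 to 3.36 RPM at P4 and 6.57 to 29.7 RPM against 1.49 to 1.87 RPM at P6. Their part in the members' differences was not tested. Mest was the member with the largest difference. At P6 its libraries held 2.57, 2.49 and 1.37 RPM in small oocytes and 84.1, 93.4 and 89.1 RPM in large oocytes. Nothing lay between the groups, and the mean was 41.4-fold lower in small oocytes (log2 difference −4.86 ± 0.34 SE, limma adjusted p = 1.7e-12). At P4 the same contrast was 1.61, 3.71 and 2.22 RPM against 50.2, 65.1 and 52.9 RPM, 22.3-fold lower (adjusted p = 9.3e-11, limma). Copg2, which overlaps Mest on the opposite strand, was 53.3, 51.6 and 51.1 RPM in P6 small and 77.4, 76.8 and 75.5 RPM in P6 large oocytes, a far smaller difference.

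Plagl1, which encodes a zinc finger regulator of growth and the cell cycle, had the same direction. It was 1.68, 1.64 and 2.33 RPM in P6 small and 16.1, 15.7 and 19 RPM in P6 large oocytes. Small oocytes lay uniformly below large ones, by 9.0-fold in the mean (log2 difference −2.64 ± 0.26 SE, limma adjusted p = 9.6e-10). At P4 the values were 5.68, 4.25 and 3.8 RPM against 15, 15.4 and 14.7 RPM, 3.29-fold lower (adjusted p = 8.7e-06, limma). Phlda2 stayed near the limit of detection: it had 0, 0 and 4 reads in P6 small and 33, 12 and 27 reads in P6 large libraries (log2 difference −1.0 ± 0.19 SE, limma adjusted p = 4.8e-05). At P4 Phlda2 had 3, 0 and 1 reads against 9, 8 and 12, and that call (adjusted p = 0.016, limma) was lost without P4 small replicate 2 (0.056) or P4 large replicate 3 (0.058).

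Cdkn1c, the p57 cell cycle inhibitor, was 94.9, 89.5 and 90.8 RPM in P6 small and 26.1, 30 and 27.9 RPM in P6 large oocytes. The replicates of each size lay close together, and the mean was 3.28-fold higher in small oocytes (log2 difference 1.68 ± 0.15 SE, limma adjusted p = 1.1e-10). At P4 it was 86.8, 79.7 and 77.7 RPM against 29.7, 26.3 and 28 RPM, 2.91-fold higher (adjusted p = 1.2e-09, limma). Snrpn was 46.2, 52.5 and 47.1 RPM in P6 small and 15.9, 20.3 and 18 RPM in P6 large oocytes, again with no overlap (2.70-fold, log2 difference 1.39 ± 0.15 SE, limma adjusted p = 9.5e-09). At P4 Snrpn was 1.98-fold higher in small oocytes (adjusted p = 4.4e-06, limma). Peg3 behaved differently at the 2 ages. At P4 its small libraries (182, 167 and 207 RPM) stood barely above the large ones (166, 136 and 151 RPM), and the difference of 0.29 did not pass the test (adjusted p = 0.17, limma). At P6 they held 247, 256 and 266 RPM against 119, 94.3 and 96.5 RPM, 2.48-fold higher (log2 difference 1.31 ± 0.19 SE, limma adjusted p = 6.5e-07). The change of that difference between ages was 1.02 ± 0.26 (SE, limma adjusted p = 0.018), a contrast added after the values were seen. Peg3 was the only one of the 10 members called in it, against 8.52% of all genes (5.88% higher and 2.64% lower).

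Grb10 was 28.6, 17.5 and 32.1 RPM in P4 small and 63, 53.9 and 65.1 RPM in P4 large oocytes, 2.33-fold lower in small oocytes without overlap (log2 difference −1.23 ± 0.22 SE, limma adjusted p = 2.1e-05). At P6 the ranges overlapped (38.7, 33 and 48.8 RPM against 53.7, 47.5 and 49.9 RPM), and the call depended on the tool: −0.34 (adjusted p = 0.17) with limma, −0.87 (0.00061) with edgeR and −0.94 (2.1e-05) with DESeq2. H19 was at 24, 24 and 9 reads in P6 small and 2, 0 and 2 reads in P6 large libraries (log2 difference 0.98 ± 0.36 SE, limma adjusted p = 0.016), a call lost without P6 small replicate 1 (0.050) or 2 (0.067). Igf2 and Meg3 were at 2.85 RPM or less in all P4 and P6 libraries and were called at neither age. At P4, 2 members were called higher in small oocytes and 4 lower, and at P6 the counts were 4 and 3. The median log2 difference of the members was 0.25 at P4 and 0.21 at P6, and that of all genes was 0.34 and 0.41. Rescaling by size factors moved the last 2 values to 0.01 and 0.00, and no called member changed sign under it. The split over all genes moved with that scaling, from 7507 higher and 3156 lower to 4783 and 5112 at P4, and from 7904 and 3396 to 5276 and 5576 at P6.

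**Figure D2:**
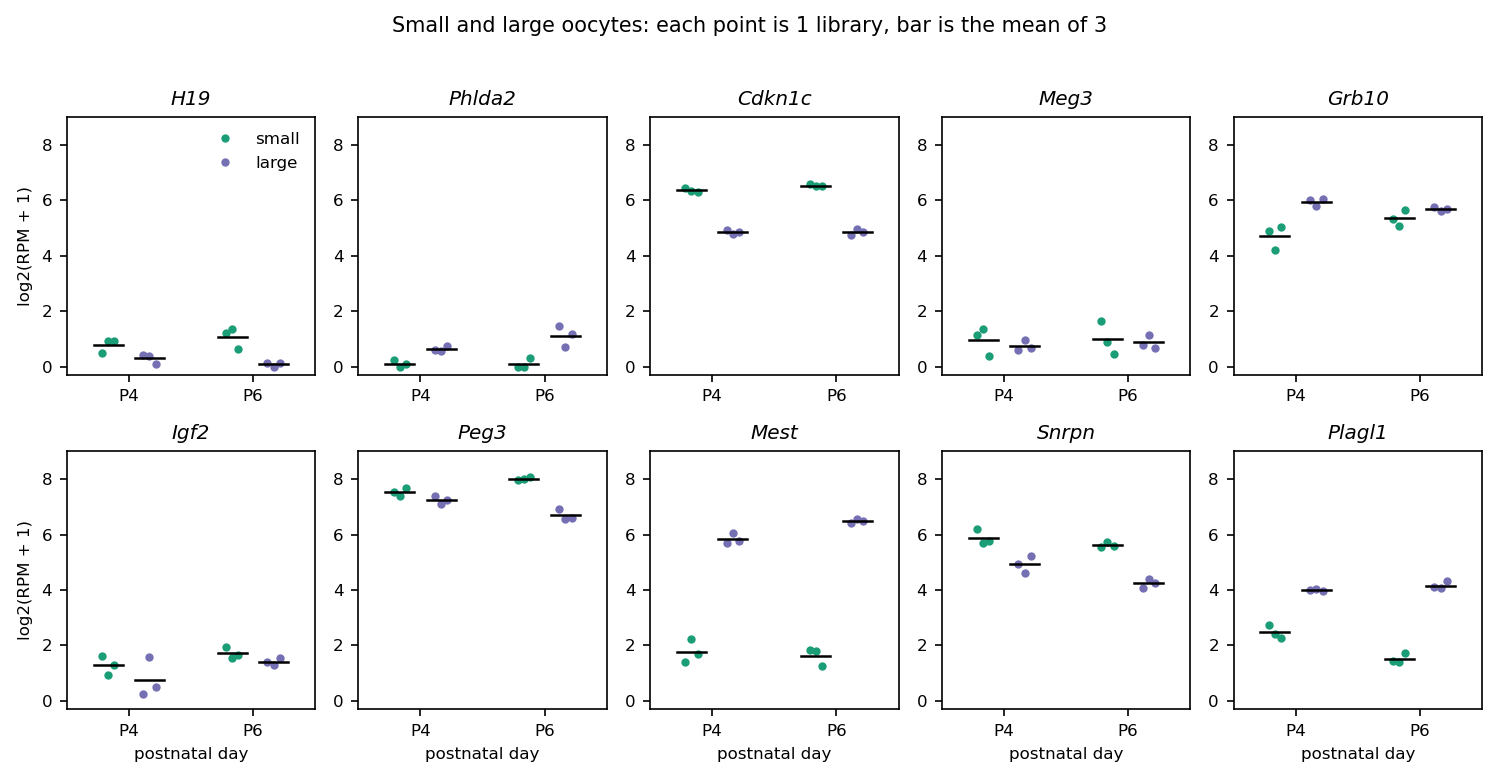
Levels of the 10 members at P4 and P6 in oocytes of both sizes, as log2(RPM + 1). Points are libraries, green for small and violet for large oocytes, and bars are means of 3 libraries. Mest and Plagl1 are low in small oocytes and Cdkn1c and Snrpn are high in them at both ages.

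Other genes of the imprinted domains were looked at next. Usp29, transcribed away from the start of Peg3 in the opposite direction, had no reads in any P6 small library and 12.2, 10.5 and 11.3 RPM in the P6 large libraries. With 3 reads per library as the floor, it was at least 53.5-fold higher in large oocytes, which is opposite to Peg3. Among the other imprinted genes, 24 of 49 tested were called higher in P6 small oocytes and 11 lower, close to the 51.3% and 22.1% over all genes. Cd81 (31.1 against 2.81 RPM), Dlk1 (28.3 against 3.46 RPM) and Zdbf2 (86.3 against 13.5 RPM) led the higher ones, and Peg10 (0.97 against 20.8 RPM) and Dio3 (5.01 against 43.2 RPM) were among the lower ones. The factors that write, protect or remove imprints were listed as 17 genes, of which 5 were called higher and 8 lower in P6 small oocytes. Dnmt3l, the cofactor of de novo methylation in growing oocytes, was at 0.0386 RPM in the small oocytes and 44.5 RPM in the large ones, and Dnmt1, the maintenance methyltransferase, at 260 and 4754 RPM. Tet2, a 5-methylcytosine oxidase, was at 48.5 RPM in the small oocytes and 4.80 RPM in the large ones.

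In the culture, the germ cells of D5 to D11 were compared first. H19, Meg3, Mest, Plagl1 and Peg3 rose and Phlda2, Igf2 and Grb10 fell. Phlda2 was 16.4, 35.3 and 14.1 RPM at D5 and 1.05, 0.105 and 0 RPM at D11. The decrease (log2 difference −4.01 ± 0.35 SE, limma adjusted p = 1.8e-09) had largely taken place by D7 (1.55, 4.75 and 2.2 RPM). The D11 libraries held 22, 2 and 0 reads, so that the fold of the means rests on replicate 1: it was 56.9 with that library and 418 without it. H19 dipped to 33, 56.9 and 28.6 RPM at D7 and then stood at 162, 328 and 254 RPM at D9 and 248, 282 and 175 RPM at D11. All D11 libraries were above those of D5 (76.7, 113 and 70.1 RPM), 2.72-fold in the mean (log2 difference 1.44 ± 0.29 SE, limma adjusted p = 0.00032). Meg3 went from 2.56, 3.77 and 3.01 RPM at D5 to 28.5, 73.5 and 48.5 RPM at D9 and 11.8, 53.1 and 10.7 RPM at D11. The D11 value of replicate 2 stood apart, and it is the library with the highest stromal sum, 1650 RPM against 182 and 177 RPM in the others. The log2 difference between D11 and D5 was 2.30 ± 0.43 (SE, limma adjusted p = 0.00011), and 1.58 (0.00095) without that library. The part of stromal RNA in it was not tested.

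Mest was 12.4, 8.33 and 10.8 RPM at D5 and 42.3, 77.1 and 27.6 RPM at D11, 4.65-fold higher (log2 difference 2.01 ± 0.26 SE, limma adjusted p = 1.1e-06). Plagl1 was 15.3, 5.48 and 11.9 RPM against 30.2, 59.6 and 39.4 RPM, 3.96-fold higher (adjusted p = 1.2e-05, limma). Neither gene's D5 libraries reached those of D11. Igf2 fell 2.64-fold, from 112, 93.1 and 127 RPM to 46.2, 51.2 and 28.3 RPM (log2 difference −1.41 ± 0.26 SE, limma adjusted p = 9.1e-05), while H19, its neighbour, rose. Grb10 fell 3.14-fold (adjusted p = 0.00027, limma; 5.14-fold without D11 replicate 2), but its groups overlapped, with 45.5, 23.5 and 56.2 RPM at D5 and 9.08, 23.6 and 7.16 RPM at D11. Peg3 rested on one library: D5 replicate 2 held 16.7 RPM where the others held 223 and 163 RPM, and D11 held 275, 280 and 235 RPM. The log2 difference of 1.61 ± 0.48 (SE, limma adjusted p = 0.0088) was 0.46 (0.015) without that library, and 0.87 (0.093) with edgeR. D5 replicate 2 stood apart over all genes as well. The chi-square per gene of its read counts was 229 and 178 against the other D5 libraries, and 12.3 between those. The D5 levels of the other members include this library too. Cdkn1c (−0.21, limma adjusted p = 0.30) and Snrpn (log2 difference 0.03) were not called. The 5 members called higher and 3 called lower stand beside 46.3% of all 16065 genes tested called in either direction (31.2% higher). By D9, 5 members were already called higher and 2 lower, against 32.3% of all genes (24.2% higher and 8.15% lower). That contrast of D9 with D5 was added to the planned comparisons. Of the granulosa markers 11 of 14, and of the stromal markers 10 of 10, were called higher at D11 as well, and their part in the members' rises was not tested.

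**Figure D3:**
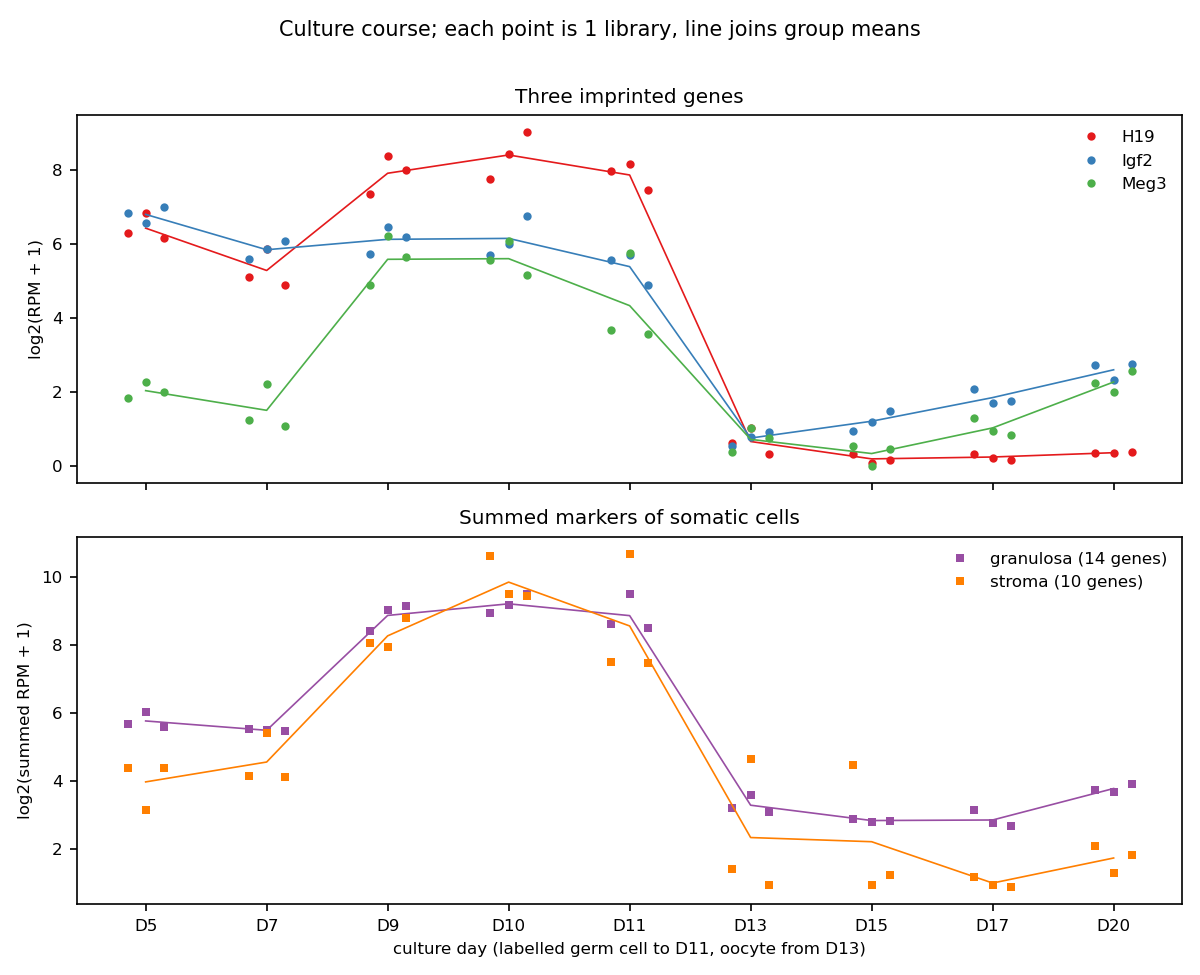
Levels along the culture from D5 to D20, as log2(RPM + 1), of H19, Igf2 and Meg3 (upper panel) and of the summed granulosa and stromal markers (lower panel). Points are libraries (3 per day) and lines join group means on the log2 scale. H19, Meg3 and both marker sums are high from D9 to D11 and low at D13.

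The step from D11 to D13, where the labels change from germ cell to oocyte, held the steepest decreases. This contrast was also added to the planned comparisons, so its p-values are descriptive. H19 went to 0.52, 1.05 and 0.259 RPM at D13 (9, 23 and 5 reads), 386-fold below D11 (log2 difference −7.20 ± 0.29 SE, limma adjusted p = 2.6e-15), and 603-fold without D13 replicate 2. Igf2 went to 0.463, 0.728 and 0.882 RPM, 60.6-fold lower (adjusted p = 2.4e-13, limma), and Meg3 to 0.289, 1.05 and 0.674 RPM, 37.6-fold lower (adjusted p = 7.8e-08, limma). Without D11 replicate 2, the library with the high stromal sum, the Meg3 decrease was 16.8-fold. No D13 library came near a D11 library in any of these genes. Plagl1 was 3.32-fold lower (adjusted p = 3.4e-05, limma), and Grb10 rose (log2 difference 0.94 ± 0.34 SE, limma adjusted p = 0.016). The 1 member called higher and 4 called lower compare with 70.5% of all genes called (19.8% higher and 50.7% lower). Over the same 2 days the granulosa sum went from 359 to 715 RPM to 7.57 to 11 RPM, 12 of its 14 genes were called lower, and the germ-cell marker sum went from at most 5750 RPM to at least 16330 RPM. Their part in the decreases was not tested.

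From D13 to D20 the members moved apart. Mest was 43.2, 30.7 and 33 RPM at D13, 49.7, 54.8 and 53.3 RPM at D15, 75.3, 70.7 and 70.3 RPM at D17 and 102, 96 and 112 RPM at D20. Each of these days lay above the one before without overlap. Snrpn took the opposite course, with 131, 99.6 and 96 RPM at D13, 63, 70.8 and 59.4 RPM at D15, 33.9, 43.5 and 43.5 RPM at D17 and 27.7, 30.6 and 27.9 RPM at D20. H19 stayed at or below 0.293 RPM from D15 to D20, at most 5 reads a library at D20. Phlda2, at 0.116, 0.364 and 0.467 RPM on D13, was 3.26, 3.59 and 3.4 RPM on D20. Against D11, D20 oocytes held more Phlda2 (log2 difference 1.75 ± 0.35 SE, limma adjusted p = 6.7e-05), more Grb10 (2.62-fold, adjusted p = 0.0003) and more Mest (2.11-fold, adjusted p = 0.00027), all by limma. They held less Snrpn (3.20-fold lower, adjusted p = 3e-11), less Igf2 (8.23-fold lower, adjusted p = 5.9e-10), less Meg3 (6.52-fold lower, adjusted p = 0.00012) and less Plagl1 (3.52-fold lower, adjusted p = 1.7e-05), again by limma. H19 was 0.279 RPM against 235 RPM (log2 difference −7.50 ± 0.29 SE, limma adjusted p = 1.2e-16). Without D11 replicate 2 the Meg3 difference was −1.35 (2.91-fold, limma adjusted p = 0.0016) in place of −2.06, and Grb10 was 4.29-fold higher. The Phlda2 fold again rests on D11 replicate 1, being 8.86 with it and 65.1 without it.

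Cdkn1c was called higher by a small margin, 0.47 ± 0.17 (SE, limma adjusted p = 0.013), lost without D20 replicate 2 (0.079) or D11 replicate 3 (0.13). Peg3 was 89.4 to 112 RPM at D20 and 235 to 280 RPM at D11, without overlap. It was called lower (−1.43 ± 0.48 SE, limma adjusted p = 0.0099), with the call lost by edgeR (−0.74, adjusted p = 0.11). The SE is shared by all groups of the fit, which include the D5 library at 16.7 RPM. In all 4 members were called higher and 6 lower, against 77.6% of all genes (22.5% higher and 55.1% lower), with a median log2 difference of −1.54 over the members and −0.66 over all genes. With size factors the split over all genes went from 3621 higher and 8844 lower to 5527 and 6475. Of the other imprinted genes, 6 of 51 were called higher, including Dio3, Kcnq1 and Usp29, and 33 lower, including Gatm, Dcn and Dlk1. Of the imprint factors 8 were called higher, with Dnmt3l (log2 difference 5.93) and Zfp57 (4.23) first, and 8 lower, with Tdg (−3.93) first. The stromal list was called lower throughout (10 of 10 genes).

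Cultured cells were then set beside cells from ovaries. D5 and E14.5 germ cells have no common clock, so that this contrast, like the next ones, joins genetic background, origin and age. Cdkn1c was 30.6, 37.6 and 31.4 RPM at D5 and 93.8, 60.3 and 83.3 RPM at E14.5, 2.38-fold lower in culture without overlap (log2 difference −1.21 ± 0.16 SE, limma adjusted p = 6.9e-08). Meg3 was 6.14-fold lower (log2 difference −2.03 ± 0.44 SE, limma adjusted p = 0.00031), or 3.85-fold without E14.5 replicate 3, and Plagl1 2.51-fold lower (−1.35 ± 0.29 SE, adjusted p = 0.00023). Snrpn was 80.4, 99.9 and 90.2 RPM against 42.7, 56.1 and 55.3 RPM, 1.76-fold higher (adjusted p = 1.9e-05, limma). Mest was called higher (0.92 ± 0.31 SE, limma adjusted p = 0.018), a call lost without D5 replicate 1 (0.067) or E14.5 replicate 1 (0.19). H19, Igf2 and Phlda2 had log2 differences of 0.15, −0.25 and −0.32 and were not called (limma adjusted p = 0.80, 0.55 and 0.42). Grb10 was 0.50 (limma adjusted p = 0.19), and 0.85 (0.031) without D5 replicate 2. Peg3 depended on the same D5 library: −0.58 (limma adjusted p = 0.25) with all libraries, 0.57 (0.019) without D5 replicate 2, −1.27 (0.0053) without replicate 1 and −1.04 (0.041) without replicate 3. The 2 members called higher and 3 called lower stand beside 37.6% of all 16452 genes tested (23.9% higher and 13.7% lower), whose split went from 3931 higher and 2250 lower to 3148 and 2969 with size factors. The 6181 genes called in either direction became 1732 with only the groups compared and 4974 without D5 replicate 2.

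D20 oocytes were compared with both sizes of P6 oocytes, which share the D20 libraries. Against P6 small oocytes, Mest was 48.1-fold higher at D20 (log2 difference 5.07 ± 0.31 SE, limma adjusted p = 1.6e-18) and Plagl1 6.51-fold higher (12.9, 13.9 and 9.96 RPM at D20; adjusted p = 5.1e-09, limma). Cdkn1c, at 35.8, 46.6 and 37.5 RPM, was 2.30-fold lower at D20 (adjusted p = 6.6e-09, limma), and Peg3, at 89.4, 112 and 91 RPM, 2.63-fold lower (adjusted p = 0.0015, limma). In each of these 4 genes the groups were separate. Phlda2 was higher at D20 (log2 difference 2.04 ± 0.28 SE, limma adjusted p = 2.4e-08), and so were Igf2 (0.88, adjusted p = 0.0067) and Meg3 (1.27, adjusted p = 0.01). The Meg3 call was lost without P6 small replicate 3 (0.073). Snrpn was lower (−0.74 ± 0.14 SE, limma adjusted p = 1.3e-05), but not by edgeR (−0.29, adjusted p = 0.07) or DESeq2 (−0.23, adjusted p = 0.17). H19 (−0.72, limma adjusted p = 0.059) and Grb10 (−0.19, 0.61) were not called. That made 5 members higher and 3 lower, against 66.9% of all genes (23.4% higher and 43.4% lower), whose split went from 3857 higher and 7147 lower to 5581 and 4960 with size factors.

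Against P6 large oocytes, the called members were all higher at D20 and the differences were smaller. Igf2 was 5.57, 3.97 and 5.74 RPM at D20 and 1.62, 1.44 and 1.92 RPM in P6 large oocytes, with no overlap (3.06-fold, log2 difference 1.19 ± 0.29 SE, limma adjusted p = 0.0033). Snrpn was 1.59-fold higher (0.65 ± 0.14 SE, limma adjusted p = 0.0012), also without overlap. Phlda2 (1.03 ± 0.28 SE, limma adjusted p = 0.0094), Meg3 (1.39 ± 0.44 SE, adjusted p = 0.026) and Cdkn1c (0.49 ± 0.16 SE, adjusted p = 0.027) were called less firmly. Phlda2 was lost by edgeR (adjusted p = 0.20), by DESeq2 (0.15) and without P6 large replicate 2 (0.086). Cdkn1c was lost by edgeR (adjusted p = 0.079), by DESeq2 (0.063) and without D20 replicate 2 (0.19) or P6 large replicate 1 (0.12) or 3 (0.065). Meg3 was lost without D20 replicate 1 (0.056) or 3 (0.10) and without P6 large replicate 1 (0.084) or 3 (0.086). Mest differed by 0.21 with a 95% interval from −0.42 to 0.84 (limma adjusted p = 0.81). H19 (0.26), Grb10 (−0.53) and Peg3 (−0.08) were not called either. The 5 members called higher compare with 9.62% of all genes called higher, 4.59% called lower and 14.2% called in either direction, and the split over all genes went from 1582 higher and 755 lower to 1428 and 1232 with size factors. The 2337 genes called in either direction became 1474 without D20 replicate 2 and 1422 without P6 large replicate 1.

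**Figure D4:**
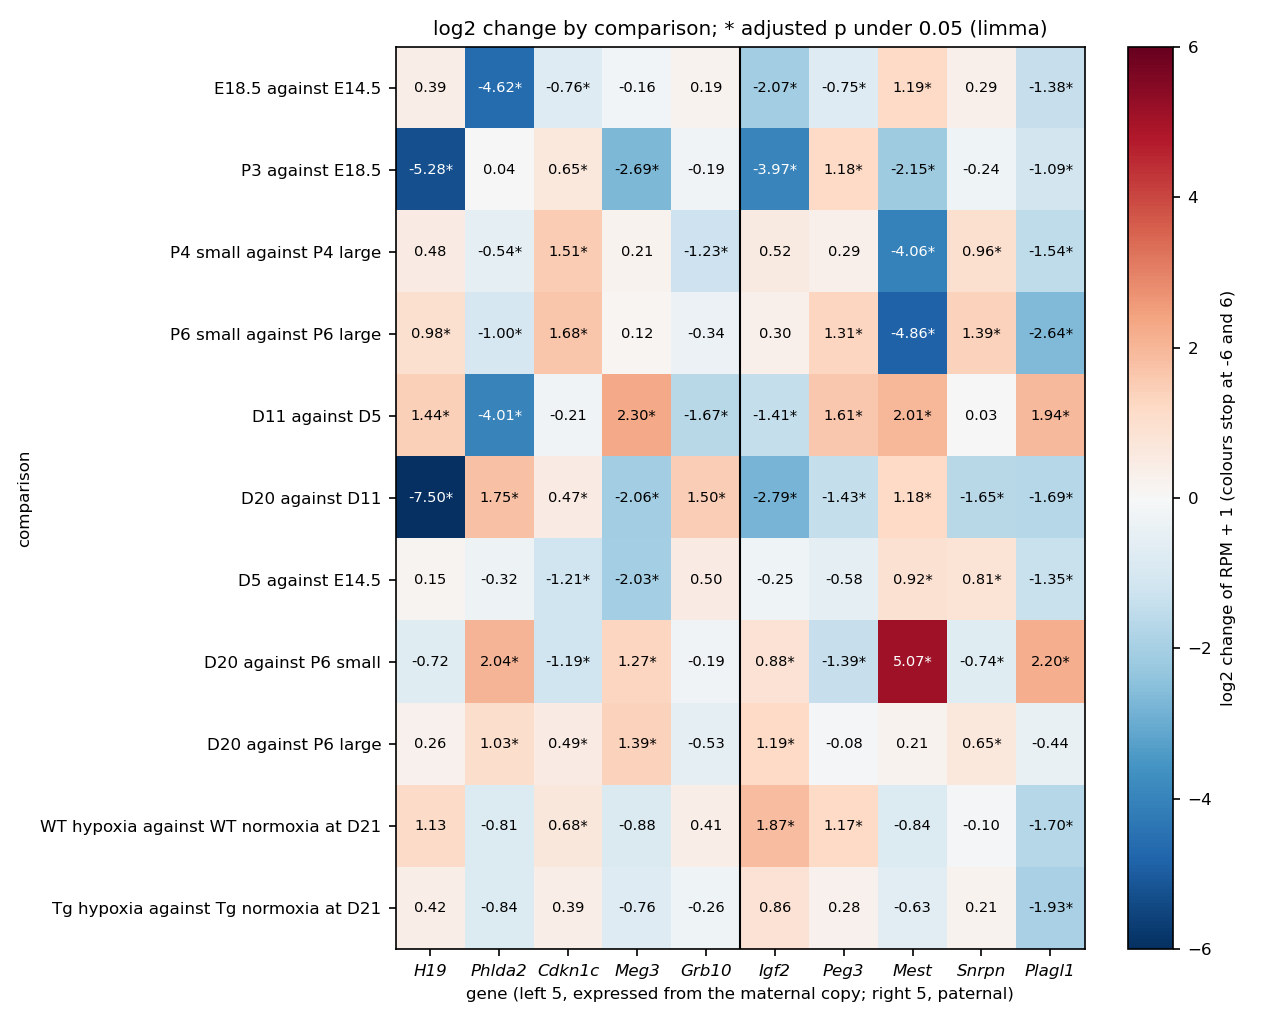
Heat map of the log2 differences of log2(RPM + 1) of the 10 members (columns) in 11 comparisons (rows), first-named group minus second, with the value printed in each cell. Red cells are higher and blue cells lower in the first-named group, colours stop at −6 and 6, and an asterisk marks a limma adjusted p under 0.05. Mest has the largest difference between small and large oocytes, and H19 the largest decrease in culture.

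The D21 oocytes address the question in the study's title, on hypoxia and Foxo3. As a check of the labels, Foxo3 was 267 to 367 RPM in the 6 Tg libraries and 44.8 to 128 RPM in the 6 WT libraries. In WT oocytes, hypoxia went with higher Cdkn1c, Peg3 and Igf2 and lower Plagl1. Cdkn1c was 59.8 and 51.5 RPM in normoxia and 94.3 and 84.6 RPM in hypoxia, 1.61-fold higher (log2 difference 0.68 ± 0.14 SE, limma adjusted p = 0.013). Peg3 was 113 and 64.5 RPM against 191 and 197 RPM, 2.18-fold higher (1.17 ± 0.23 SE, limma adjusted p = 0.012). Plagl1 was 24.4 and 9.46 RPM against 3.48 and 4.59 RPM, 4.20-fold lower (−1.70 ± 0.38 SE, limma adjusted p = 0.016). In each of these genes both hypoxic libraries lay on one side of both normoxic ones, with the WT normoxia libraries themselves wide apart in Peg3 and Plagl1. Replicate 2, the lower one in both genes and in Igf2, had a summed level of blood and immune markers of 76.1 RPM, against 1.03 to 5.28 RPM in the other D21 libraries, and the part of such RNA was not tested. Igf2 was 2.26 and 0.833 RPM against 6.44 and 9.68 RPM, 5.21-fold higher (1.87 ± 0.50 SE, limma adjusted p = 0.026). Without WT normoxia replicate 1 the Igf2 fold was 9.67 and the Plagl1 fold 2.34. Mest was 46.2 and 37.3 RPM against 18.48 and 27.9 RPM and was not called by limma (−0.84, adjusted p = 0.075), but was by edgeR (−1.05, adjusted p = 0.027). These 4 calls rest on few libraries: without WT hypoxia replicate 1 or 2, or with only the 4 libraries compared, no member was called.

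In Tg oocytes, Plagl1 was the member called by limma, lower in hypoxia, at 23.8 and 16.1 RPM in normoxia and 4.72 and 4.11 RPM in hypoxia (4.52-fold, log2 difference −1.93 ± 0.38 SE, limma adjusted p = 0.047). That call was lost when any of the 4 libraries was left out (adjusted p from 0.13 to 0.46, limma), at a pseudocount of 5 RPM (0.082), without a filter (0.12) and with the replicate block (0.061). Other settings called more members: DESeq2 added Cdkn1c (higher) and Phlda2 (lower), and limma on only these 4 libraries added Cdkn1c and Igf2 (higher) and Meg3 and Mest (lower). Cdkn1c was 77.8 and 71.4 RPM against 94.5 and 102 RPM (0.39, adjusted p = 0.24), and Peg3 182 and 156 RPM against 193 and 217 RPM (0.28, adjusted p = 0.63), both by limma. With all libraries, the interaction of oxygen and genotype called none of the 14392 genes by limma (869 at an unadjusted p under 0.05; 0 by edgeR and 2 by DESeq2). That count rests on one library: without WT normoxia replicate 1 the interaction called 2338 genes. The interaction estimate for Peg3 was −0.89 ± 0.32 (SE, limma adjusted p = 0.65), and −1.29 (0.013) without WT normoxia replicate 1. In WT, 3 members were called higher and 1 lower, against 22.5% of all genes (15.9% higher and 6.55% lower), whose split went from 2295 higher and 942 lower to 1606 and 1445 with size factors. The WT count over all genes, 3237, was 16 and 60 without hypoxia replicates 1 and 2, 6011 and 1295 without normoxia replicates 1 and 2, and 10 with only the groups compared. In Tg, 1 was called lower, against 1.02% of all genes (0.153% higher and 0.869% lower). These 147 genes became 0 without any 1 of the 4 libraries and 3854 with only the groups compared. The granulosa markers moved with the oxygen condition, from 134 to 301 RPM in WT normoxia to 32.3 to 36.8 RPM in WT hypoxia, and from 149 to 234 RPM to 28.5 to 47.9 RPM in Tg. They were called lower in 8 of 12 tested markers in WT and 5 of 12 in Tg, and their part in the members' differences was not tested.

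Between genotypes, none of the members was called by limma in normoxia (0.00695% of all genes called), in hypoxia (0.00695%) or where oxygen was not given (6.85%). The first of these shares rests on one library, since 5202 genes were called without WT normoxia replicate 1 in place of 1, and the last on all 4, since the 986 genes became 3171 without WT replicate 2 and 2 or 3 without any other. In normoxia, 3 members had an unadjusted p under 0.05 (Cdkn1c, Grb10 and Peg3), edgeR called 0 members and DESeq2 called 1, Peg3. In hypoxia 0 members reached that unadjusted p, and edgeR and DESeq2 called 0. Where oxygen was not given, 4 members reached it (H19, Cdkn1c, Meg3 and Plagl1), edgeR called 0 and DESeq2 called 1, Plagl1. Of all 14392 genes tested, 3454 reached it by limma in normoxia, 68 in hypoxia and 4279 where oxygen was not given. DESeq2 called 1607, 2 and 1573 of all genes, in the same order. Peg3 in normoxia was 182 and 156 RPM in Tg and 113 and 64.5 RPM in WT (log2 difference 0.97 ± 0.23 SE, limma adjusted p = 0.11), and without WT normoxia replicate 1 it was 1.37 (0.0012). Plagl1 was 48 and 60.8 RPM in Tg and 26.6 and 18.46 RPM in WT oocytes with no oxygen condition given, with no overlap (1.25 ± 0.38 SE, limma adjusted p = 0.069; 0.048 by DESeq2). In these Tg libraries the granulosa sum was 517 to 751 RPM, against 227 to 293 RPM in WT. From the other imprinted genes, 6 of 43 tested were called higher and 5 lower in WT hypoxia, against 15.9% and 6.55% of all genes, with Igf2r, the receptor that clears IGF2, at 272 RPM against 94.2 RPM in normoxia. In Tg hypoxia 2 of the 43 were called lower, against 0.869% of all genes, and none higher.

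**Figure D5:**
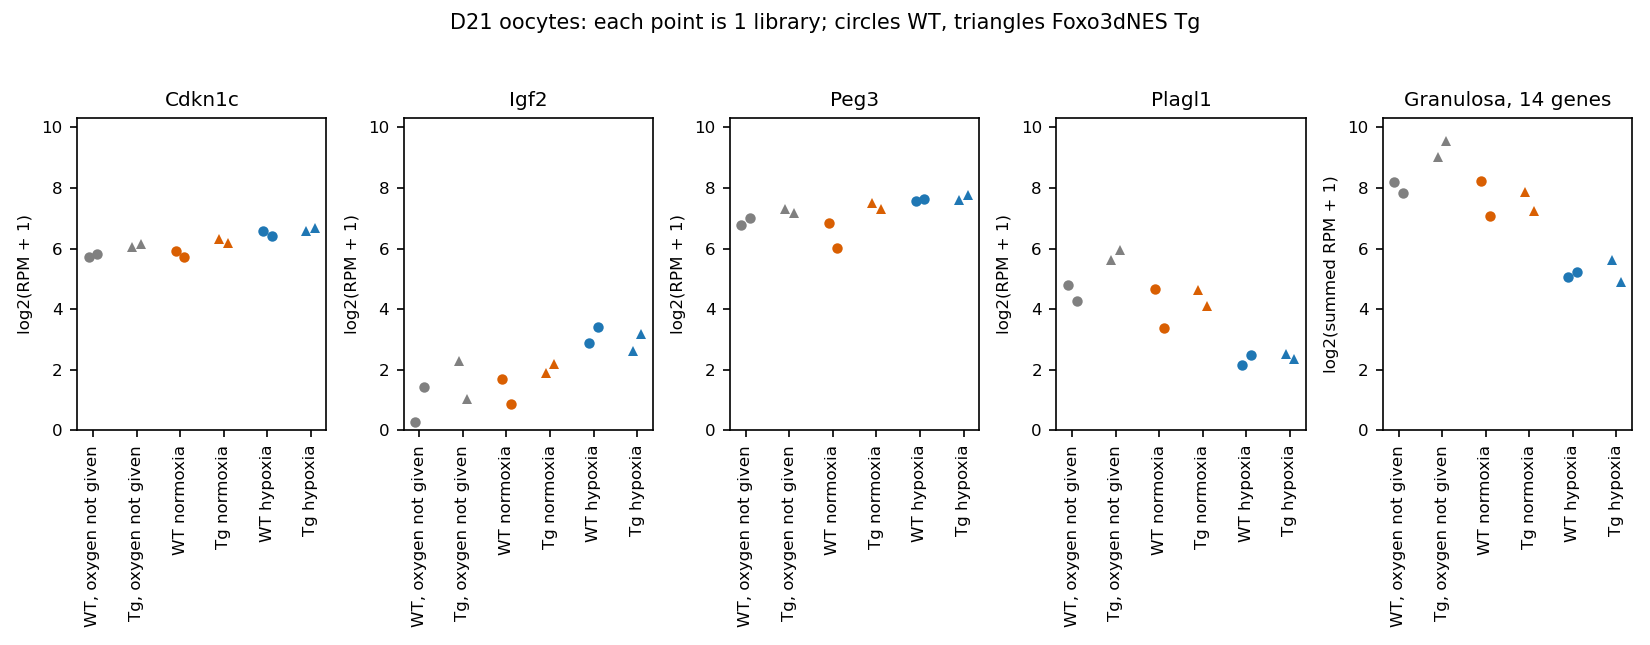
Levels at D21 of Cdkn1c, Igf2, Peg3 and Plagl1 and of the 14 summed granulosa markers, as log2(RPM + 1), in the 6 groups of 2 libraries. Each point is a library, circles being WT and triangles Tg, in grey where oxygen was not given, orange in normoxia and blue in hypoxia. Plagl1 and the granulosa sum are low in both hypoxic groups, and Cdkn1c is highest there.

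Members were also compared with other named genes by the shape of their levels. The 24 group means of log2(RPM + 1) were used, with 10398 candidate genes whose highest group mean was at least 20 RPM. Predicted genes and genes with clone names were passed over. Nearest to H19 were Mir675 (Pearson r = 0.96), which shares its reads, and Taf7l (0.95). The nearest to Meg3 were Rian (0.97), the next RNA of its domain, and Myl9 (0.92). Mest was nearest to Bhlhe40 (0.96) and Myo1c (0.93), and Igf2 to Trank1 and Rhox13 (0.96 each). Phlda2 was nearest to Cdx2 (0.91), Plagl1 to Gas6 (0.89), Cdkn1c to Supt3 (0.86), Grb10 to Ighmbp2 (0.79) and Peg3 to Tnrc18 (0.77). Snrpn was nearest to Snurf (1.0), with which it shares its transcript. Among the members, H19 was most like Igf2 (0.93) and Meg3 (0.87), and the least alike pairs were Grb10 with Snrpn (−0.58) and Cdkn1c with Mest (−0.57). These correlations are descriptions over groups that share stages and cultures, and carry no test.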

How the data were processed

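The authors deposited one table of RPM values (reads per 1000000 reads) for 24062 genes in 66 libraries, made from directional poly(A)+ libraries amplified by 12 cycles of PCR, per the labels' protocols. The submitters' processing notes name TopHat2, Bowtie2 2.0.13, featureCounts 1.5.1, R 3.4.4 and the build mm10. The annotation and the strand setting are not given in the sources used here. Each column summed to 1000000, and dividing by the value of 1 read gave whole reads within 0.01 read for all but 1 of 1588092 values.

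Levels were tested as log2(RPM + 1) with limma 3.58.1 (trend, two-sided) in R 4.3.3, over genes with a mean of at least 1 RPM in a group of the fit, and Benjamini-Hochberg adjustment over all genes tested. A member was called at an adjusted p under 0.05. The ovarian, D5 to D20 and D21 libraries were fitted apart, and D5 to D20 and ovarian libraries jointly where compared. Added to the 15 planned comparisons were E16.5 against E14.5, D9 against D5 and D13 against D11. The change of the small and large difference from P4 to P6 was added as well. The test was also run on simulated counts, with the same spread in every group and few genes changed. That setting is simpler than these data, so the run cannot vouch for the calls. Groups and replicates follow the labels, whose design text calls the samples biologically triplicated or duplicated. Replicates differed by more than sampling noise in every group (chi-square per gene from 3.42 to 229). Alternatives were pseudocounts of 0.1 and 5 RPM, no filter, size factors, edgeR 4.0.16 and DESeq2 1.42.0 on the recovered reads, a replicate block, only the groups compared, and each library left out.

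The members and all gene lists were chosen with earlier results of these data known. Members are always named. From the other imprinted genes (63 listed, 59 in the table) and the imprint factors, up to 3 called genes in each direction with a group mean of at least 5 RPM could be named, and from each list of markers the 2 with the highest mean. Exon lengths and overlaps came from GENCODE vM21 and sequences from RefSeq. Counting error limits levels near 3 reads.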

Additional observations from a re-analysis of the deposited data

Results flagged for a closer look

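The difference in Peg3 between small and large oocytes was not the same at the 2 ages. It was 0.29 at P4 and 1.31 at P6 on the scale of log2(RPM + 1), and the test of the change gave 1.02 ± 0.26 (SE, limma adjusted p = 0.018). That contrast was added after the values were seen. In it 8.52% of all genes were called, and Peg3 alone among the members. Small oocytes held 182, 167 and 207 RPM at P4 and 247, 256 and 266 RPM at P6, and large oocytes 166, 136 and 151 RPM at P4 and 119, 94.3 and 96.5 RPM at P6. The level was thus higher in small and lower in large oocytes at the later age.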

How the results depend on the processing

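Over the alternatives other than leaving out a library, 1155 values of single members kept their direction and their side of the threshold, 28 gained and 33 lost a call and 7 had the opposite sign. Of those that kept it, 28 had changed sign while called under neither setting. With each library left out in turn the same counts were 776, 13, 30 and 1, with 37 such sign changes. The opposite signs came from other times and from one library. With E16.5 in place of E18.5, Cdkn1c was 0.093, Peg3 0.73 and Snrpn −0.59. With D13 in place of D20, Phlda2 was −0.0073, Cdkn1c −0.11, Mest −0.34 and Snrpn 0.23, and 5 members were called. At D5 against E14.5, Peg3 ran from −1.27 without D5 replicate 1 to 0.57 without D5 replicate 2. D20 against P6 large gave 3 calls with edgeR and 3 with DESeq2, and 3 to 4 with a library left out. Hypoxia in WT gave 7 calls with DESeq2, 0 with only the groups compared and 0 to 6 with a library left out. Hypoxia in Tg gave 0 calls at a pseudocount of 5 RPM, 0 without a filter, 3 with DESeq2, 5 with only the groups compared and 0 to 0 with a library left out. Tg against WT gave 1 call with DESeq2 in normoxia (0 to 4 with a library left out), and where oxygen was not given 1 at a pseudocount of 5 RPM and 1 with DESeq2 (0 to 1 with a library left out). The interaction gave 0 to 1 calls with a library left out. The cause of these changes was not tested. Over all genes, the number called by limma, edgeR and DESeq2 was 147, 365 and 1044 for hypoxia in Tg, 1, 2 and 1607 for Tg against WT in normoxia, and 986, 1 and 1573 where oxygen was not given. For hypoxia in WT it was 3237, 3659 and 4719 of 14392 genes. For D20 against P6 large it was 2337, 1918 and 2308 of 16452 genes. Deviations of same-numbered libraries had a median r of 0.003 in ovarian, −0.004 in D5 to D20 and −0.02 in D21 libraries. Some did deviate together: 14 of 108, 30 of 108 and 12 of 30 pairs were above 0.1, with highest r of 0.24, 0.63 and 0.28. In D21 groups of 2 libraries the deviations mirror each other, so that each r there is counted for both replicates. With the replicate number as a block, hypoxia in Tg gave 0 calls (Plagl1 −1.93, limma adjusted p = 0.061), 94 genes in place of 147 were called in it, and 1 in place of 986 in Tg against WT where oxygen was not given. The block changed no other call of a member. Differences below about 3 reads a library were not detectable at this depth.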
